A study of Mus musculus with 24 samples.

Results

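The nuclear factor I family comprises 4 mouse genes, Nfia, Nfib, Nfic and Nfix, which were taken by symbol from 21887 protein-coding genes of the RefSeq annotation of GRCm38.p6. All 4 symbols were found. Each gene was examined together with 5 kb on either side, here called its window, in 8 deposited peak lists from wild-type mouse retina. The assay was CUT&RUN, in which a nuclease guided by an antibody releases DNA around a chromatin-bound protein. The lists cover SOX8, SOX9, H3K4me3 (a histone mark of active promoters) and H3K27ac (a mark of active promoters and enhancers), each on postnatal day 2 (P2) and day 17 (P17). At each age the series holds 4 SOX8 libraries from 2 antibodies and 2 libraries for each of SOX9, H3K4me3, H3K27ac and a nonspecific IgG, made from 600000 nuclei per reaction. The labels name retina with no selection of a cell type and do not say how many animals were used.

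Nuclear factor I proteins are transcription factors that bind DNA as dimers at a palindrome of the half-site TTGGC and regulate differentiation in many tissues. In the central nervous system they are known for the onset of gliogenesis, and in the spinal cord SOX9 is known to act upstream of NFIA and to cooperate with it. In the retina, NFIA, NFIB and NFIX are known for the late phase of neurogenesis, in which progenitors give rise to bipolar cells and to Müller glia, the main glial cells of the retina. NFIC is best known for its role in the formation of tooth roots.

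A list gives the start and end of each peak and no height, enrichment or p-value, and it names no replicate. There is therefore no replicate error behind any value below, no difference between ages or targets could be tested, and the depth of the libraries is unknown. Peaks of the IgG libraries were not analysed here, and no background of the method stands beside the peaks. In whole retina, fewer cells of a type and less signal per cell cannot be told apart. The 4 genes used to check the tissue (the eye field genes Pax6 and Six3 and the photoreceptor genes Crx and Nrl) all had H3K27ac and H3K4me3 peaks at both ages. This is a weak check, as many protein-coding genes had such peaks. H3K27ac lay at 81.8% of them at P2 and 57.0% at P17, and H3K4me3 at 49.3% and 50.9%. The lists differ in size and width: the P2 H3K27ac list holds 287845 peaks and the P17 list 29909, the P2 SOX9 list 5476 and the P17 list 2855, and the SOX8 lists 2653 and 2400. The median SOX8 peak measured 2217 bp at P2 and 2911.5 bp at P17, and the median SOX9 peak 2668.5 bp and 5336 bp. The SOX8 lists alone are labelled combined, in a way that is not described, so they may have been made otherwise than the SOX9 lists. The narrowest P17 SOX8 peak measured 1 bp, and the narrowest P17 SOX9 peak 120 bp. The part of these differences in the values below was not tested.

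The 4 genes differ in size by more than an order of magnitude, which affects how many peaks a window can hold. Nfia spans 540.8 kb (chr4:97578066-98118876), Nfib 216.6 kb (chr4:82290173-82506751), Nfix 96.5 kb (chr8:84704712-84801238) and Nfic 35.7 kb (chr10:81396191-81431919). Nfia is longer than, or as long as, 99.1% of protein-coding genes, and Nfic 69.9%. Shares over all protein-coding genes are therefore given with those over the 6579 genes at least as long as Nfic, called long genes below. The annotation used gives the ends of each gene, so peaks are placed inside a gene, across its end or in its flank, and were not assigned to exons, introns or untranslated regions.

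Annotated transcription start sites were found for 3 of the 4 genes in the RefSeq promoter table of GRCm38.p6: 1 for Nfia on the plus strand, 1 for Nfic on the minus strand and 4 for Nfix on the minus strand. Counted from the end transcribed first, these start sites lie 3.88 kb into Nfia, 4.75 kb into Nfic and 21.2 to 28.4 kb into Nfix. That end is the lower-coordinate one for Nfia and the upper-coordinate one for Nfic and Nfix, and no start is listed there. Starts of these genes may thus be missing. The 250 bases before 5 of these 6 start sites are shown because a SOX9 peak of P2 or P17 lies over them or at most 299 bp away. The other Nfix stretch lies 4553 bp from the nearest SOX9 peak and is not shown. Capitals mark matches on either strand to a SOX consensus (2 bases of A or T followed by CAAAG or CAATG) or to the nuclear factor I half-site TTGGC, and these matches do not overlap each other.
Nfia, chr4:97581693-97581942, plus strand: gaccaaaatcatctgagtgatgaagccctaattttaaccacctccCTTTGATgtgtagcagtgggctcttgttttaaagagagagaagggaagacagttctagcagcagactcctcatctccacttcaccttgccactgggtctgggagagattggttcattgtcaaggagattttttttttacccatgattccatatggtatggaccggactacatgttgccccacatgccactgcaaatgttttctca
Nfic, chr10:81427174-81427423, minus strand: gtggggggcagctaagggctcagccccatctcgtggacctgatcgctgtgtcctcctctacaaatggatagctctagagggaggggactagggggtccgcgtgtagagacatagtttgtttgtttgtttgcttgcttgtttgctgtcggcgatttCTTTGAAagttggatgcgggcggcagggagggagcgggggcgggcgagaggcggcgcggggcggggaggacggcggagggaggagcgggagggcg
Nfix, chr8:84775829-84776078, minus strand: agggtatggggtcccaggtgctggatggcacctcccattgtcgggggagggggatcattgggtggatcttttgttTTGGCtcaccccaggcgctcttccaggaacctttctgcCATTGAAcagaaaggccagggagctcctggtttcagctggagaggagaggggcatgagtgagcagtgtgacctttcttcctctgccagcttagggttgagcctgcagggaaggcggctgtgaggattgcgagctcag
Nfix, chr8:84773411-84773660, minus strand: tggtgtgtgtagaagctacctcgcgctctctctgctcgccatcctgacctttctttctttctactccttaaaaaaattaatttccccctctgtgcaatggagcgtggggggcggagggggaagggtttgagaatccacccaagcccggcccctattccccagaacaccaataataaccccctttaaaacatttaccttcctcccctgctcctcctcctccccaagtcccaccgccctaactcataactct
Nfix, chr8:84772876-84773125, minus strand: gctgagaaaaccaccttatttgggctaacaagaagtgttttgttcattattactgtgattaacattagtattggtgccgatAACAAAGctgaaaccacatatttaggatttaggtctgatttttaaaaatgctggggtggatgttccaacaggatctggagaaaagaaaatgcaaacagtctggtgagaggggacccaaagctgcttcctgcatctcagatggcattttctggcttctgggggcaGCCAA

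The Nfia stretch lay in P2 H3K4me3 and in H3K27ac at both ages, and the nearest P2 SOX9 peak began 260 bp past its start site. The Nfic stretch, 63.2% G and C, lay outside all 4 P2 lists and wholly inside P17 SOX9, H3K4me3 and H3K27ac peaks. P2 H3K4me3 peaks did cross the upper-coordinate ends of Nfic and Nfix, where transcription of these genes begins but no start is listed. The stretches shown therefore do not describe the promoters at those ends. Of the 6 stretches, the Nfix stretch at chr8:84773411-84773660 was the one inside a P2 SOX9 peak, and it holds neither motif. The Nfix stretch that follows it, for a start site 535 bp further along the gene, had 0 bases in any SOX peak and holds 1 SOX match and 1 half-site. The Nfix stretch at chr8:84775829-84776078, 299 bp from the same P2 SOX9 peak on its other side, likewise had 0 bases in any SOX peak and holds 1 of each. Among 32851 promoter stretches of the same length, 21.8% hold a SOX match and 41.5% a half-site, and the full palindrome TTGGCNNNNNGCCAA, absent from all 6, is in 0.0365%. The matches describe these letters and show no binding site.

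SOX peaks lay at all 4 genes at P2 and at 2 of them at P17. P2 SOX9 peaks lay at Nfia, Nfib, Nfic and Nfix (4 of 4 genes), where 27.7% of all protein-coding genes and 35.9% of the long ones had such a peak. P2 SOX8 peaks lay at Nfib, Nfic and Nfix (3 of 4), against 15.1% of all genes and 18.6% of long genes. At P17, SOX9 and SOX8 peaks both lay at Nfic and Nfix alone (2 of 4 for each), against 15.7% and 13.0% of all genes and 17% and 13.8% of long genes. Among genes with a P2 SOX9 peak, 41.1% also had one at P17, and 35.6% of the long ones did, so the presence at 2 of 4 genes lies near the share among genes. Of the 3 members with a P2 SOX8 peak, 2 had one at P17, where 53.6% of all such genes and 46.9% of the long ones did. Nfic and Nfix had a peak in each of the 4 SOX lists, as did 6.45% of all and 6.72% of long protein-coding genes.

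The marks were listed at nearly all members. H3K4me3 lay at 4 of 4 genes at P2, against 49.3% of all and 61.0% of long genes, and at 4 of 4 at P17, against 50.9% and 63.7%. H3K27ac lay at 4 of 4 genes at P2, against 81.8% and 96.7%, and at 3 of 4 at P17, all but Nfib, against 57.0% and 71.6%. Among genes with a P2 peak of the same mark, 93.1% of all and 92.6% of long genes also had P17 H3K4me3, and 69.3% and 74.0% had P17 H3K27ac. The P17 presence at members with a P2 peak, 4 of 4 and 3 of 4, lies near these shares. Long genes include many that are shorter than Nfia and Nfib.

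In number, 28 SOX peaks lay at the 4 genes, 19 at P2 and 9 at P17. Nfia had 2 P2 SOX9 peaks and none in the other SOX lists. Nfib had 1 P2 SOX8 and 2 P2 SOX9 peaks, and none at P17. Nfic had 4 P2 SOX8, 5 P2 SOX9, 3 P17 SOX8 and 3 P17 SOX9 peaks. Nfix had 1 P2 SOX8, 4 P2 SOX9, 1 P17 SOX8 and 2 P17 SOX9 peaks. At P2, Nfic, the shortest gene of the family, thus held the most peaks of both factors. At P17 its lead over Nfix rested on peaks in the flanks, over neighbouring genes: with no flank, both genes held 1 SOX8 and 2 SOX9 peaks. In the wider 50% of the P17 SOX8 list, Nfic held 0 peaks and Nfix 1.

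The places of the SOX peaks were counted by gene, gene end and flank. Gene bodies make up most of each window, 35729 of 45729 bp for Nfic, the shortest, so most peaks could be found inside. No share over all genes was computed for these places. Of the 28 peaks, 17 were wholly inside a gene, 7 crossed a gene end and 4 lay in a flank. H3K27ac of the same age was overlapped by 27 of the 28, near the shares of the whole lists, which were 99.7% of SOX8 and 99.4% of SOX9 peaks at P2 and 84.0% and 84.3% at P17. H3K4me3 was overlapped by 13. At P2, 5 of 13 SOX9 peaks and 3 of 6 SOX8 peaks overlapped H3K4me3, where 79.8% and 90.1% of the whole lists did. At P17, 2 of 5 SOX9 peaks and 3 of 4 SOX8 peaks did, where 66.5% and 69.7% of the whole lists did. These shares were read from few peaks, many of them neighbours in the same gene.

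Coverage is the percentage of a window that lies under peaks of a list. It is lower in a longer gene where the peaks are alike in number and width. P2 SOX9 peaks covered 7.21 kb at Nfia, 5.61 kb at Nfib, 9.12 kb at Nfix and 19.4 kb at Nfic. Nfic had the highest coverage of the 4 genes in every list, with 42.4% under P2 SOX9 peaks and 83.9% under P17 SOX9 peaks. Nfix followed with 8.56% and 17.3%. Nfib had 2.48% at P2 and Nfia 1.31%, with 0% for both at P17. The median over all protein-coding genes was 0% in each SOX list. By coverage, Nfic ranked 120 at P2 and 28 at P17 among the 21887 genes for SOX9, and Nfix 2653 and 1644. Of long genes, 69.5% had less P2 SOX9 coverage than Nfia, 78.5% less than Nfib and 98.6% less than Nfix. These ranks and shares depend in part on gene length and, for Nfic at P17, on a peak in the flank over neighbouring genes.

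**Figure D1:**
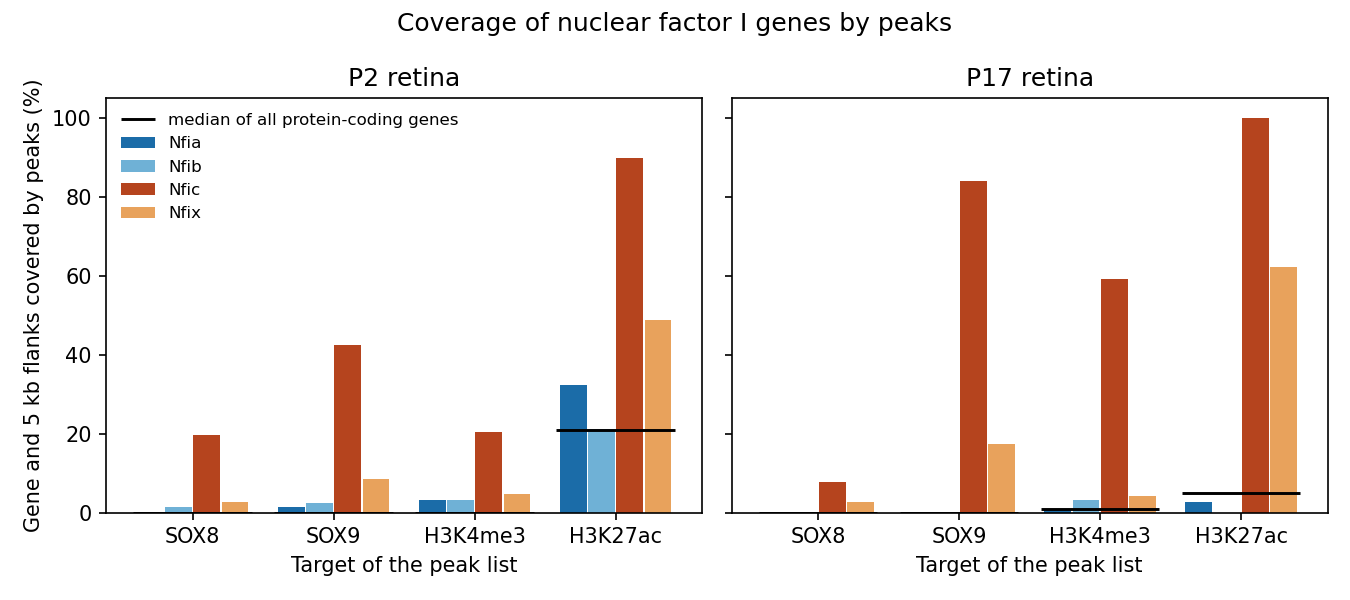
Percentage of each gene and its 5 kb flanks (vertical axis) that lies under peaks of each target (horizontal axis) at P2 (left) and P17 (right). Bars stand for the 4 genes and black lines for the median of all protein-coding genes. Nfic is highest in every list, while Nfia and Nfib have no SOX coverage at P17 and Nfib no H3K27ac.

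Nfia encodes the family member best known in the switch of progenitors to glial fate. Its P2 SOX9 peaks lay at the 2 places where the gene also had P2 H3K4me3. The peak near the annotated start, chr4:97582203-97586419 (4217 bp), was as wide as or wider than 90.3% of the list. It lay wholly within an H3K4me3 peak of 7103 bp (chr4:97579715-97586817) and overlapped E130114P18Rik, a long noncoding RNA gene that extends past the same end. The other, chr4:97771396-97774392 (2997 bp), lay 193.3 kb into the gene, at the long noncoding RNA gene Gm38709. It was wholly inside an H3K4me3 peak of 10001 bp (chr4:97771030-97781030), which ranked 83 by width among 9134. Whether this inner place holds a further start of Nfia itself was not tested.

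At P17 the marks at these places of Nfia were separate. H3K4me3 had no peak at the listed start and 2 at the inner place, chr4:97770751-97774077 (3327 bp) and chr4:97777575-97779390 (1816 bp). As other starts may be missing, this does not show that the promoters of Nfia lacked the mark. H3K27ac had a peak of 7127 bp across the start (chr4:97577451-97584577) and none at the inner place. Neither P17 H3K4me3 peak overlapped P17 H3K27ac, as was the case for 9.75% of that whole list. The second of them was narrow for its list, at the 1.69 percentile of width. In both SOX lists the P17 peak nearest to Nfia outside its window lay 2524 kb away, at Jun. At P2 the nearest outside peaks lay 803.4 kb away, at Usp1.

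H3K27ac peaks were spread along the whole of Nfia at P2. The window held 96 P2 peaks with a median width of 1342 bp, covering 178.3 kb or 32.4%, where the median gene had 20.9% and the median long gene 27.2%. At P17 it held 5 peaks covering 15.0 kb or 2.72%, where the median gene had 4.85%. The 5 P17 peaks ended by 72.8 kb into the gene, and all 5 overlapped P2 peaks. Of the P2 peaks, 19 began before that edge, those in the flank before the gene included, and 77 beyond it. With the P2 list cut to its widest 29909 peaks, the number in the P17 list, Nfia held 13 P2 peaks.

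Nfib encodes a member known for the maturation of glia and lung. Its SOX peaks clustered at the upper-coordinate end of the gene. The P2 SOX8 peak chr4:82504682-82508052 (3371 bp) lay wholly within the P2 SOX9 peak chr4:82503700-82508720 (5021 bp), and both lay within an H3K4me3 peak of 7336 bp (chr4:82502088-82509423). These SOX peaks were wide for their lists, ranking 231 of 2653 and 262 of 5476. A further P2 SOX9 peak (chr4:82511164-82513985, 2822 bp) began 4413 bp outside the gene, over the neighbouring long noncoding RNA gene Gm11266, with no SOX8 or H3K4me3. It extended past the edge of the window, and its centre lay outside.

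The H3K4me3 peak at this end of Nfib was present at both ages, while SOX and H3K27ac peaks were listed at P2 alone. The P17 H3K4me3 peak spanned chr4:82502434-82509721 (7288 bp) and shared 6990 bp with that of P2. H3K27ac had 33 peaks in the Nfib window at P2, covering 21.2%, and none at P17. Of long genes with P17 H3K4me3, 5.68% had no P17 H3K27ac peak. With the P2 H3K27ac list cut to the P17 number, 3 P2 peaks lay at Nfib.

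The nearest P17 H3K27ac peak to Nfib lay 198.2 kb beyond the upper end, at chr4:82704920-82707848 (2929 bp). At P2 the same place held the nearest outside SOX9 peak (chr4:82702485-82707122, 4638 bp) and SOX8 peak (chr4:82703682-82705961, 2280 bp). Both lay wholly in P2 H3K27ac, outside H3K4me3, and overlapped no annotated gene. The P17 H3K27ac peak covered 2203 bp of the SOX9 peak. Whether this place belongs to Nfib was not tested.

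**Figure D2:**
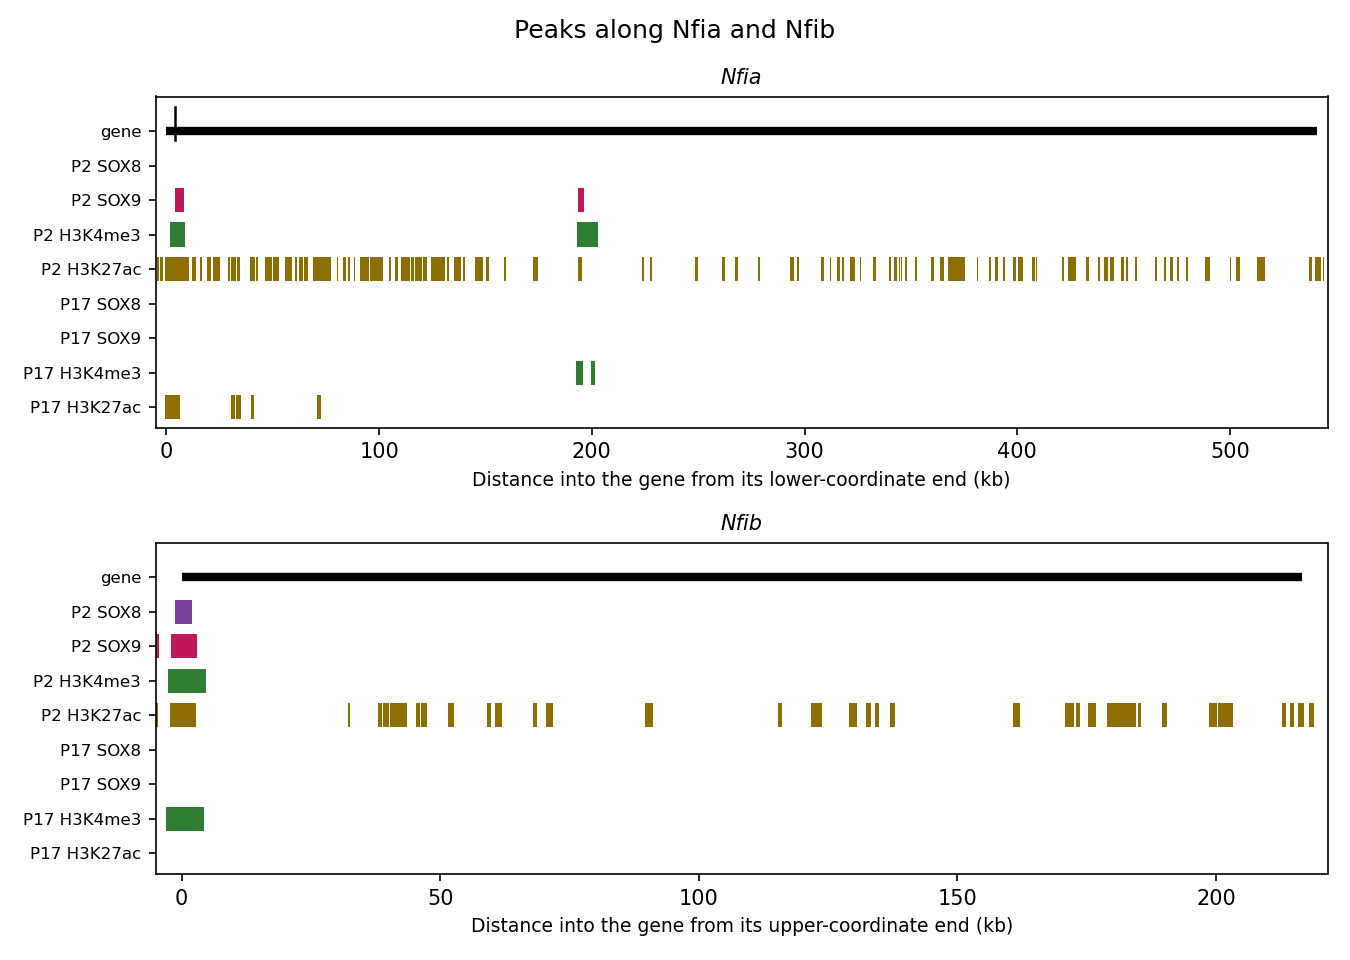
Peaks of the 8 lists (rows) along Nfia and Nfib, by distance into the gene in kb. Black bars mark the gene, ticks the annotated start site, and coloured bars the peaks within the gene and 5 kb flanks. SOX peaks occur in the P2 rows alone, at places with P2 H3K4me3 and, for 1 peak, in the Nfib flank.

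Nfic showed the densest SOX signal of the family. At P2, 5 SOX9 peaks were spread over the gene, at chr10:81400337-81404127 (3791 bp), chr10:81405404-81410321 (4918 bp), chr10:81411710-81415287 (3578 bp), chr10:81416395-81418677 (2283 bp) and chr10:81428976-81433811 (4836 bp). The last crossed the upper-coordinate end, and the others lay wholly inside the gene. H3K4me3 lay at 2 of them, that at the upper end and that at chr10:81405404-81410321, which overlaps the long noncoding RNA gene Gm16104. All 5 overlapped P2 H3K27ac, as did 99.4% of the whole P2 SOX9 list, and that mark covered 89.7% of the window.

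P2 SOX8 peaks at Nfic overlapped SOX9 in 4 of 4 cases, as did 94.5% of the whole P2 SOX8 list. The SOX8 peaks were chr10:81400850-81403632 (2783 bp), chr10:81413072-81413591 (520 bp), chr10:81415244-81418318 (3075 bp) and chr10:81429513-81432118 (2606 bp). Of these, 1 overlapped P2 H3K4me3, that at the upper end. The peak of 520 bp was among the narrowest in its list, ranking 2649 of 2653. The place where inner H3K4me3 and SOX9 coincided at P2 had no SOX8 peak at either age.

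At P17 most of Nfic lay under a single SOX9 peak of 30451 bp (chr10:81405396-81435846), the widest of that list. It contained 4 of the 5 P2 SOX9 peaks of the gene, and these covered 51.3% of it. Of 2855 P17 SOX9 peaks, 58.6% overlapped at least 1 P2 SOX9 peak, 34 overlapped 2 or more, and this was the only 1 to overlap 3 or more. P17 H3K4me3 covered 67.8% of the peak and H3K27ac 100%. The fifth P2 SOX9 site was listed at P17 as a separate SOX9 peak of 4433 bp (chr10:81399176-81403608), again outside H3K4me3. At the lower end of the window, a P17 SOX9 peak of 11556 bp (chr10:81383130-81394685) lay over the neighbouring genes Dohh, Gm48552 and Smim24 and did not reach Nfic itself. It ranked 112 by width.

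P17 SOX8 at Nfic was narrower than SOX9. Within the gene 1 SOX8 peak was listed, chr10:81429533-81431664 (2132 bp), lying wholly inside the P2 SOX8 peak of the upper end. The others, chr10:81388948-81391517 (2570 bp) at Gm48552 and chr10:81393082-81394123 (1042 bp) at Smim24, lay in the flank. SOX8 coverage of the window was 19.6% at P2 and 7.66% at P17, while that of SOX9 was 42.4% and 83.9%. Of the 3501 bp under P17 SOX8 peaks, 2132 bp lay in Nfic and the rest under the flank peaks. P17 SOX9 coverage likewise includes flank bases under the peak over Dohh, Gm48552 and Smim24. All 3 P17 SOX8 peaks were narrower than the list median and are absent from the wider 50% of that list.

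Peaks of both histone marks were also wider at Nfic at P17. H3K4me3 peaks of 4653 and 4720 bp at P2 were overlapped at P17 by peaks of 11291 bp (chr10:81404029-81415319) and 10724 bp (chr10:81423794-81434517), ranking 103 and 120 of 9629. A further P17 H3K4me3 peak of 7894 bp lay over the neighbours Smim24, Gm48552 and Dohh and reached 39 bp into Nfic. H3K4me3 coverage was 20.5% at P2 and 59.2% at P17. For H3K27ac, 8 P2 peaks of 1177 to 15254 bp were followed at P17 by 1 peak of 61184 bp (chr10:81381249-81442432), which covered the whole window and ranked 159 of 29909. Of this peak 35729 bp lay in Nfic, and it also lay over Dohh, Gm48552 and Smim24. The P2 peaks had already covered 89.7% of the window. Median H3K27ac widths in the whole lists were 1166 bp at P2 and 3268 bp at P17, so wider P17 H3K27ac peaks are not particular to Nfic. Median H3K4me3 widths were 3542 bp at P2 and 3703 bp at P17, so the whole H3K4me3 lists were nearly alike in width.

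Nfix, known for its role in neural stem cells and in fetal muscle, had SOX8 and SOX9 peaks at different places at P2. The P2 SOX8 peak crossed the upper-coordinate end (chr8:84798521-84801364, 2844 bp), with 99.2% of its bases in H3K4me3 (chr8:84796379-84801340, 4962 bp). No P2 SOX9 peak overlapped it, and 5.47% of P2 SOX8 peaks lacked SOX9 in this way. The 4 P2 SOX9 peaks lay inside the gene, from 25.7 to 73.2 kb from that end, at chr8:84773361-84775529 (2169 bp), chr8:84742797-84745271 (2475 bp), chr8:84737239-84740351 (3113 bp) and chr8:84728060-84729423 (1364 bp). None of the 4 overlapped SOX8 or H3K4me3, and all lay wholly in P2 H3K27ac. In the whole P2 SOX9 list, 54.5% of peaks lacked SOX8 and 20.2% lacked H3K4me3. The 1364 bp peak was narrow for its list, at the 1.61 percentile. With the P2 SOX9 list cut to its widest 2855 peaks, the number in the P17 list, 1 of the 4 was left.

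At P17 both factors had a peak at the same inner place of Nfix. The SOX9 peak of 13272 bp (chr8:84734445-84747716) ranked 71 by width and contained 2 of the 4 P2 SOX9 peaks. The SOX8 peak chr8:84734148-84737096 (2949 bp) shared 2652 bp with it and ended 142 bp short of the nearer P2 SOX9 peak. This place lay outside H3K4me3 at both ages and overlapped a P17 H3K27ac peak of 18622 bp (chr8:84728349-84746970). The upper end had no SOX peak at P17, while H3K4me3 was listed there at 4418 bp (chr8:84797437-84801854). The P2 SOX9 peak over the annotated start at chr8:84773410 was not listed at P17 either.

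A further P17 SOX9 peak (chr8:84700940-84706112, 5173 bp) crossed the lower end of Nfix. It covered Lyl1, a haematopoietic transcription factor gene, and 1401 bp of Nfix. It was the 1 SOX peak of the 28 that overlapped neither mark of its age, and no SOX8 peak lay there. In the whole P17 SOX9 list, 15.7% of peaks lacked H3K27ac and 33.5% lacked H3K4me3. The share that lacked both marks was not computed, so this single peak cannot be called unusual.

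H3K27ac coverage of Nfix was 48.9% at P2, from 14 peaks, and 62.2% at P17, from 10 peaks. The median gene had 20.9% and 4.85%, so the order of the ages at Nfix was the reverse of that at the median gene. Median peak widths at Nfix were 1808 bp at P2 and 4384.5 bp at P17, beside 1166 bp and 3268 bp in the whole lists, so the wider P17 peaks are shared with the lists as a whole. Of the P2 peaks 12 overlapped a P17 peak, and all 10 P17 peaks overlapped a P2 peak, as did 88.2% of the whole P17 list. With the P2 list cut to the P17 number, 5 P2 peaks lay at Nfix, fewer than at P17.

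**Figure D3:**
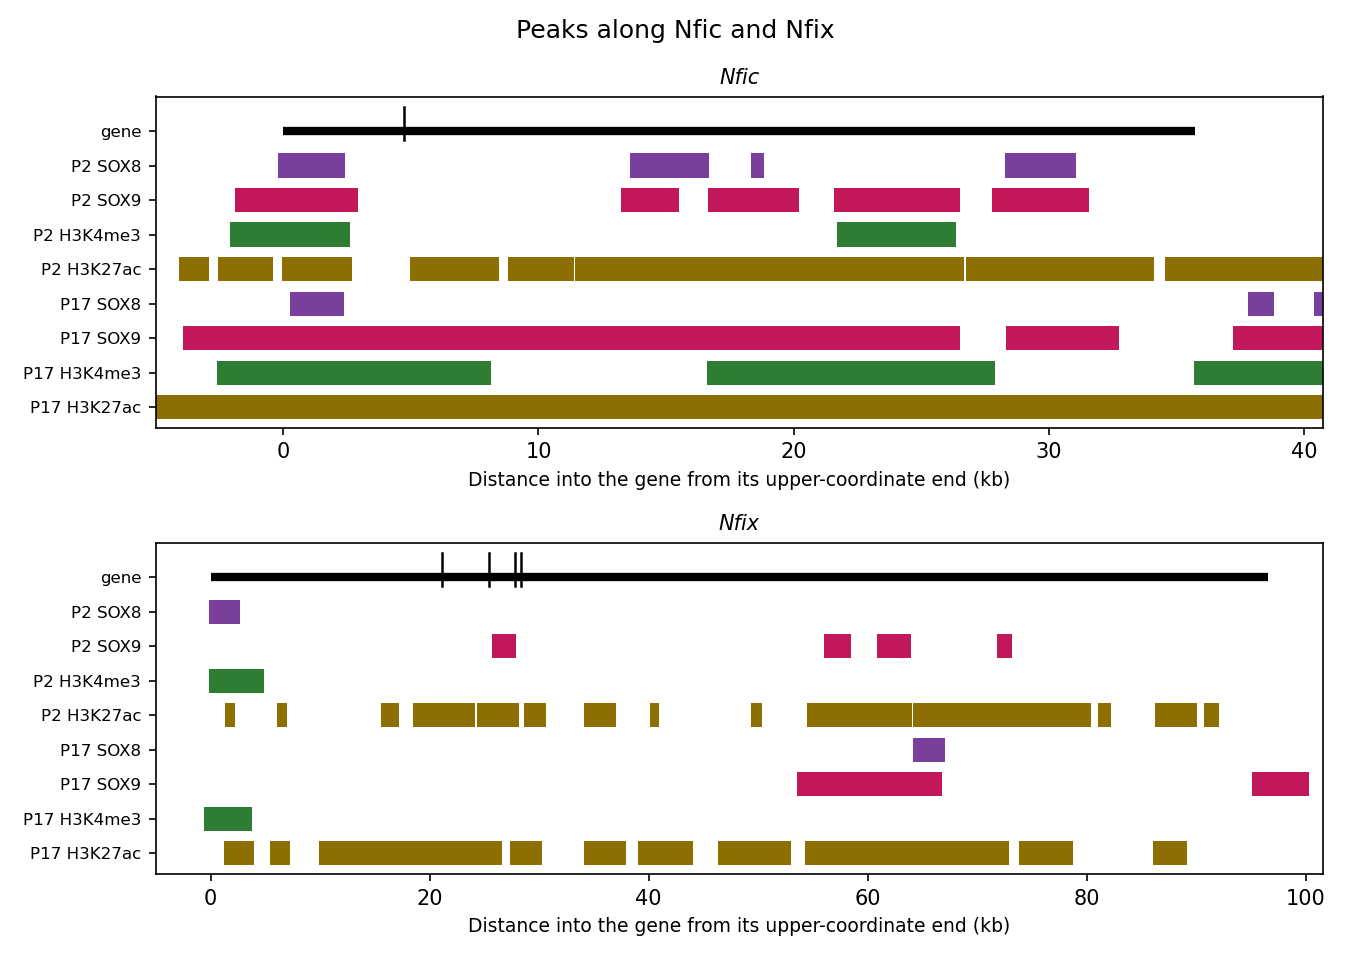
Peaks of the 8 lists (rows) along Nfic and Nfix, by distance into the gene in kb from the upper-coordinate end. Black bars mark the gene, ticks the annotated start sites, and coloured bars the peaks, clipped at the 5 kb flanks. The P17 SOX9 peak of 30451 bp spans 4 separate P2 SOX9 peaks of Nfic, and at Nfix the P2 SOX8 and SOX9 peaks lie apart.

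In width, the SOX peaks at these genes were spread across their lists. At P2, 5 of 6 SOX8 and 9 of 13 SOX9 peaks were wider than the list median. At P17, 1 of 4 SOX8 and 3 of 5 SOX9 peaks were. P17 SOX9 peaks at Nfic and Nfix ranged from 4433 to 30451 bp, and P17 SOX8 peaks at the same genes from 1042 to 2949 bp.

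**Figure D4:**
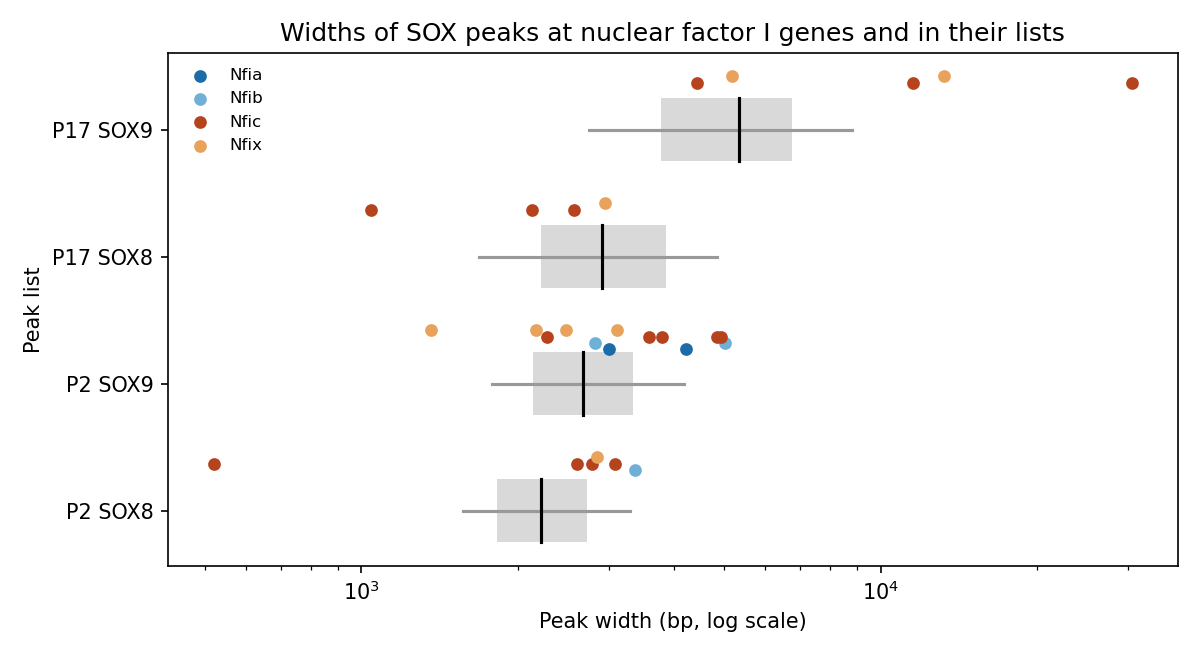
Width in bp (horizontal log axis) of each SOX peak at the 4 genes (coloured points), above the whole list it comes from (grey box from the 25 to the 75 percentile, line from the 10 to the 90 percentile, black bar at the median). Points are shifted vertically by gene. The P17 SOX9 peak of Nfic at 30451 bp is the widest of its list, and all P17 SOX8 peaks of Nfic lie left of the median.

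Genes of the same developmental setting were counted in the same lists. They were chosen with earlier results of these data known, so their counts are a description and no independent support. Among 16 genes of late progenitors and gliogenesis, P2 SOX9 peaks lay at 16 and P2 SOX8 peaks at 15, and P17 SOX9 peaks at 8 and P17 SOX8 peaks at 5. The median SOX9 coverage of their windows was 50.4% at P2 and 0.267% at P17, beside 0% over all protein-coding genes at both ages. SOX9 coverage was lower at P17 than at P2 at 13 of the 16, and 0% at P17 at 8 of these. Among those at 0% was Hes1, a Notch effector, with 50.8% at P2, and Pax6 had 76.4% at P2 and 29.8% at P17. The 3 with higher SOX9 coverage at P17 were Casz1 (21.6% and 43.1%), Hes5 (65.5% and 66.2%) and Zbtb20 (0.397% and 0.534%). The histone marks at the same 16 genes also moved: H3K4me3 coverage was lower at P17 at 15 and higher at 1. H3K27ac coverage was lower at 13 and higher at 2. SOX8 coverage was lower at 15 and higher at 0, so lower P17 coverage was not particular to SOX9. The share of all protein-coding genes with lower P17 coverage was not computed. Median H3K27ac coverage over all genes was itself 20.9% at P2 and 4.85% at P17. Of all genes with a P2 SOX9 peak, 41.1% had one at P17. Among 14 glial genes tied to nuclear factor I proteins in brain or retina, P2 SOX9 peaks lay at 5 and P2 SOX8 peaks at 4. Those of SOX9 were Slc1a3, Glul, Rlbp1, Dkk3 and Vim. At P17, SOX9 lay at 1 of the 14, Apoe, and SOX8 at 2, Slc1a2 and Dkk3. Shares over all protein-coding genes were those given above, 27.7% and 15.1% at P2 and 15.7% and 13.0% at P17, so the glial list lay near or below them at P17.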

How the data were processed

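Retinal CUT&RUN peaks were analysed from 8 lists, 1 for each target and age. The submitters' processing notes name Bowtie2, SEACR and the build GRCm38. Their versions, parameters, thresholds, the use of IgG and the pooling of libraries are not given in the sources used here. The deposited lists hold peak positions, and the score field the authors deposited is 0 in all 349901 peaks and was not used.

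Starts were converted to count from 1. A peak was assigned to a gene when at least 1 bp of it lay in the gene or its 5 kb flanks. Peaks were shared at an overlap of at least 1 bp. Overlap and coverage were computed in Python 3.11.15 with pandas 2.3.3 and numpy 2.4.6, and the overlap procedure was tested on simulated data. No statistical test was made, because no list holds replicates. Alternatives were other flanks, peak centres, the wider 50% of each list, shortened P2 lists and a 50% overlap. Depth is unknown.

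The members and gene lists were chosen with earlier results of these data known. Named are the 4 genes, for each the 3 genes most alike in coverage, neighbours under their SOX peaks, and examples from the lists. Some genes of these lists are not reported here and were left out of their counts.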

Additional observations from a re-analysis of the deposited data

How the results depend on the processing

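The number of the 4 genes with a peak kept within 1.5 times its value in each list with no flank, with 50 kb flanks, by peak centre and with the shortened P2 lists. With the wider 50% of each list, 1 gene in place of 2 had a P17 SOX8 peak, because the 3 peaks at Nfic drop out. The 12 overlap counts of SOX peaks stayed within 1.5 times under an overlap of 50% of the shorter peak. Counts for single genes moved more. With 50 kb flanks, P17 SOX8 peaks at Nfic went from 3 to 10, and 16 of 32 counts moved by over 1.5 times. With no flank, P17 SOX8 at Nfic went from 3 to 1 and P2 SOX9 at Nfib from 2 to 1. With the wider 50% of each list, P17 H3K4me3 at Nfia went from 2 to 0, and P2 SOX9 at Nfix from 4 to 1. Shortening the P2 SOX9 list to the P17 number, an alternative chosen after the data were seen, also left 1 P2 SOX9 peak at Nfix. The P2 H3K27ac list cut to the P17 number left 13 peaks at Nfia, 3 at Nfib, 4 at Nfic and 5 at Nfix, against 5, 0, 1 and 10 at P17. No paired analysis was possible because the lists carry no replicate.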

Other observations

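Genes whose coverage in the 8 lists was most like that of each family member were found by the distance over the 8 percentages, as a description with no test. The percentages were not scaled, so lists with high coverage, such as P2 H3K27ac, weigh most. Genes near by this distance can differ in SOX peaks. Nearest to Nfia were Rbfox2, a splicing regulator (distance 1.26 percentage points), Pdlim5 (1.57) and Fmnl2 (2.11). Of these, Rbfox2 and Pdlim5 also had a P2 SOX9 peak, and Fmnl2 had no peak in any SOX list. Nearest to Nfib were Dennd5b (2.35), Nova1, a neuronal splicing regulator (2.37), and Pbrm1 (2.55), which had no P2 SOX8 peak. Nova1 also had P2 SOX8, P2 SOX9 and P17 H3K4me3 peaks and no P17 H3K27ac peak. Nearest to Nfix were Zfyve26, Wdtc1 and Leo1, each at 12.4. All of them had SOX9 peaks at both ages, and Wdtc1 alone had SOX8 peaks. No gene lay close to Nfic: the nearest were Gpx4, a glutathione peroxidase gene of 9.27 kb (30.6), Igsf8 (34.6) and Ppp1r9b (38.4), all of them shorter genes. Within the family, Nfia and Nfib were 11.9 apart and Nfib and Nfic 164.8.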
